A study of Homo sapiens with 3 samples.

Results

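FOXK2 circular RNAs (circRNAs) were examined as the back-splice junctions lying wholly within 17:80477000-80563000 (hg19), the window of the FOXK2 gene, in 3 human cell lines. The rule found 1 junction, 17:80521230-80526077, of 17156 distinct junctions in all, and that junction was listed in each of the 3 lines. HPDE is a non-tumour line of pancreatic ductal epithelium, kept without serum in a keratinocyte medium to which growth factor for epithelial cells, extract of bovine pituitary and an antibiotic-antimycotic mix were added. The other lines, PANC-1 and SW1990, are from pancreatic ductal adenocarcinoma (PDAC) and were kept in DMEM with fetal bovine serum, penicillin and streptomycin. Each line gave 1 library of total RNA, no treatment was labelled, and there was no replicate. A difference between HPDE and the PDAC lines therefore cannot be told apart from the difference in medium or from differences between single libraries.

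FOXK2 is a forkhead transcription factor, with a forkhead-associated domain that binds phosphorylated proteins and a forkhead domain that binds DNA. With its relative FOXK1 it recruits SIN3 histone deacetylase complexes and the BAP1 deubiquitinase to chromatin, and both factors are known for control of nutrient signalling, glycolysis and autophagy. A circRNA forms when the spliceosome joins the end of an exon to the start of the same or an earlier exon. The closed product lacks free ends and is usually stable, and only reads across the back-splice tell it from the linear mRNA. A FOXK2 circRNA is known in pancreatic cancer under the name circFOXK2 and has been described as a binder of the microRNA miR-942. The sources used here do not give the junction of that molecule, so its identity with the listed junction was not tested; no other FOXK2 junction was listed to which the name could apply.

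The junction spans 4848 bases, the exact distance from the start of exon 2 to the end of exon 3 of FOXK2 in GENCODE v29 (GRCh38, + strand). Of 132 exon pairs in the annotated FOXK2 transcripts, 1 had this distance, and 5 transcripts carry it. Distances were compared and no position was converted between builds. The same comparison over 3491 SW1990 junctions with a host symbol in the annotation gave an exact match for 86.1%, against 1.83 to 3.12% when the span was altered by 1 to 5 bases in either direction. By this distance the FOXK2 circRNA runs from exon 2 to exon 3, and its listed coordinates were identical in all 3 lines. If the intron between them is removed, which junction reads alone do not show, the circle is 343 bases long, 195 from exon 2 and 148 from exon 3, with 57.4% G and C.

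The sequences below give the RNA that such a circle would hold, as DNA letters from the GENCODE v29 transcripts, 5′ to 3′. The first line shows the back-splice, the feature that the reads detect, with the last 30 bases of exon 3 in lower case and the first 30 bases of exon 2 in capitals. In the exon lines capitals mark GAGAAG, the complement of seed bases 2 to 7 of miR-942-5p, and in the microRNA line (RefSeq, GRCh38.p14) capitals mark its seed, bases 2 to 8.
back-splice junction: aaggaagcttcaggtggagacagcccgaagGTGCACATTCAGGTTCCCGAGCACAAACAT
exon 2, chr17:82563354-82563548 (GRCh38, + strand): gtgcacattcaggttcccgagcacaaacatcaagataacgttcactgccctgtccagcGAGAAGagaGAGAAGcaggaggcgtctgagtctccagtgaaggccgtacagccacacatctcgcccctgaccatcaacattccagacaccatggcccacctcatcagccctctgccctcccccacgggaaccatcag
exon 3, chr17:82568054-82568201 (GRCh38, + strand): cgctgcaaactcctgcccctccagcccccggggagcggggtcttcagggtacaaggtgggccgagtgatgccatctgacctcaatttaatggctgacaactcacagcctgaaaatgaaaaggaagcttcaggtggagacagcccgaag
hsa-miR-942-5p, chr1:117094655-117094676 (GRCh38.p14, + strand): uCUUCUCUguuuuggccaugug

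The circle held 2 copies of GAGAAG, both in exon 2, and the second of them, extended by 1 base to AGAGAAG, matched the whole seed of miR-942-5p. The search ran on the transcribed strand only, around the circle and across the back-splice, and the 7-base motif contains the 6-base one. Counted from the first base of exon 2, the 7-base match began at position 67. Such a match is common: of 18593 windows of 343 bases taken from the start of exon 2 in the longest coding transcript of each protein-coding gene, 8.67% held AGAGAAG and 26.5% held GAGAAG. Of 2370 mature human miRNAs in the RefSeq table, 98 (4.14%) had a 7-base seed match in the circle. The other arm, miR-942-3p, had neither its 7-base motif GCCATGT nor its 6-base motif CCATGT there. A match of letters describes the sequence and shows no binding, and miRNA levels were not analysed here.

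Both exons are protein-coding. They carry codons 140 to 254 of the FOXK2-201 transcript, 17.3% of its 1980 coding bases, counting a codon cut by an exon boundary at either end. The 343 bases are 1 base more than a whole number of codons, so a reading frame would shift on each passage round the circle. The upstream flank is intron 1, with 43046 bases, and the downstream flank is intron 3, with 3522 bases.

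**Figure D1:**
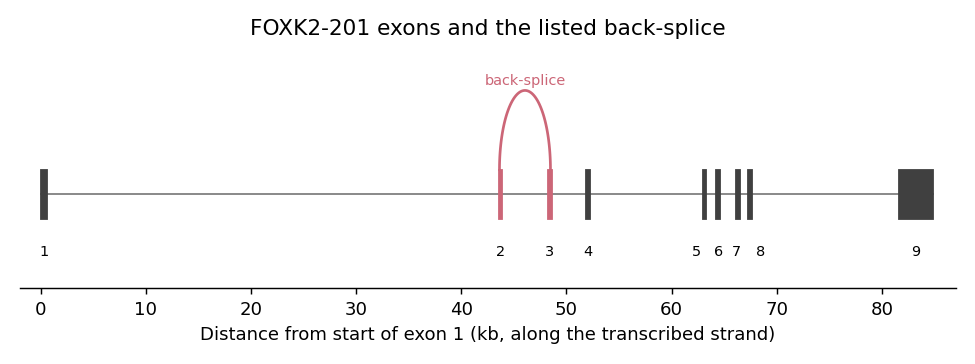
Exons of FOXK2-201 drawn as boxes (exons narrower than 0.35 kb are widened to that width to be visible) against distance from the start of exon 1 in kb. The arc joins the start of exon 2 to the end of exon 3, the back-splice listed in all 3 lines, which follows the long first intron.

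A start at the second exon was a frequent layout among these circRNAs. Over circles of every layout, an upstream intron as long as that of FOXK2 was not frequent. Of 2953 SW1990 junctions that matched a single exon pair of their host, 701 (23.7%) began at exon 2 and 286 (9.69%) ran from exon 2 to exon 3, as in FOXK2. Among the 583 such junctions listed in all 3 lines, 30.2% began at exon 2 and 10.8% ran from exon 2 to exon 3. The circles of the latter set held a median of 2 exons and 337 spliced bases, close to the 2 exons and 343 bases of FOXK2. Of those with an intron on both sides (581 of them), 92.8% had a shorter upstream intron than FOXK2 (median 6898 bases), but only 34.8% had a shorter downstream intron (median 5781 bases). That set mixes circles with any first exon. Those that begin at exon 2, as in FOXK2, were not compared on their own, so the length cannot be called particular to FOXK2.

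The FOXK2 junction was read 21 times in HPDE, 330 times in PANC-1 and 49 times in SW1990. Levels are given in RPM, back-splice reads per M (mega) reads of the authors' library total, where 1 read equals 0.0240, 0.0273 and 0.0208 RPM in that order. The level was 0.504 RPM in HPDE, with a 95% Poisson interval of 0.312 to 0.770. It was 9.00 RPM in PANC-1 (8.05 to 10.0) and 1.02 RPM in SW1990 (0.753 to 1.35). PANC-1 stood far above both other lines, and the intervals of SW1990 and HPDE overlapped slightly. All intervals here cover counting error only, because PCR copies were not told apart and no line had a second library.

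**Figure D2:**
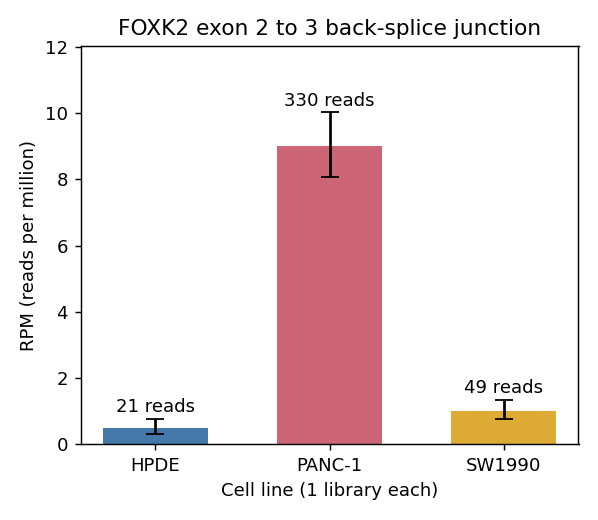
Level of the FOXK2 exon 2 to 3 junction in RPM (bars from 0) in each of 3 cell lines with 1 library each, with 95% Poisson intervals and the read number above each bar. PANC-1, at 9.00 RPM, exceeded SW1990 at 1.02 RPM and HPDE at 0.504 RPM.

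In PANC-1 the FOXK2 circRNA was 17.9-fold higher than in HPDE (exact conditional binomial interval 11.5 to 29.3). In SW1990 it was 2.02-fold higher than in HPDE (1.19 to 3.55), so the interval left out equality but reached below 2-fold. SW1990 was 8.84-fold below PANC-1 (6.53 to 12.2), an interval that, with the authors' totals, lay wholly above that of SW1990 over HPDE. FOXK2 had no other junction, so these are also the folds of the gene's sum. In bulk RNA a higher level per cell and a larger share of cells with the circRNA cannot be told apart. When each library was scaled to its total of back-splice reads instead of the authors' total, the PANC-1 over HPDE fold was 11.7. The SW1990 over PANC-1 ratio moved from 0.113 to 0.220, and the directions stayed. Its interval was then 0.159 to 0.298, and that of SW1990 over HPDE was 1.52 to 4.53. Read as distances from equality, these intervals overlapped.

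These folds were read against those of all circRNAs with at least 10 reads over the 2 libraries, a library at 0 being set to 3 reads. A level at least 2-fold higher was found for 72.0% of 6701 circRNAs in PANC-1 over HPDE and for 44.0% of 3541 in SW1990 over HPDE, and one at least 2-fold lower for 72.0% of 6687 in SW1990 against PANC-1. Many of those were listed in a single library. Of circRNAs with reads in both libraries, 35.3% were past 2-fold higher in PANC-1 over HPDE, 21.0% higher in SW1990 over HPDE and 39.4% lower in SW1990 than in PANC-1. Passing 2-fold was therefore common. The shares and medians that follow take every circRNA with reads in both libraries, with no read minimum, so they include folds on few reads. The size of the PANC-1 fold was not common: 2.78% of the 1441 circRNAs in both lists had a larger one. Their median log2 fold was 0.23 against 4.16 for FOXK2. For SW1990 over HPDE, 21.4% of 877 were above FOXK2, whose log2 fold was 1.02 against a median of -0.21. For SW1990 over PANC-1, 7.29% of 1660 had a lower log2 fold than the -3.14 of FOXK2, with a median of -0.52. The comparisons share libraries and are not independent of each other.

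Within each list the FOXK2 circRNA stood near the middle in HPDE and among the most abundant in PANC-1. It ranked 1249 of 3370 in HPDE, 555 of 3764 in SW1990 and 128 of 13341 in PANC-1. It held 1.62 times the median level of the HPDE list, 4.90 times that of SW1990 and 55.0 times that of PANC-1. The PANC-1 list was the longest and had the lowest median, 0.164 RPM, which raises such a multiple. Among the 659 circRNAs listed in all 3 lines, where list length plays no part, FOXK2 ranked 305 in HPDE, 151 in SW1990 and 15 in PANC-1. Of these 659, 153 (23.2%) had the same order of lines as FOXK2, with PANC-1 above SW1990 above HPDE, and 115 (17.5%) were at least 2-fold above HPDE in both PDAC lines.

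**Figure D3:**
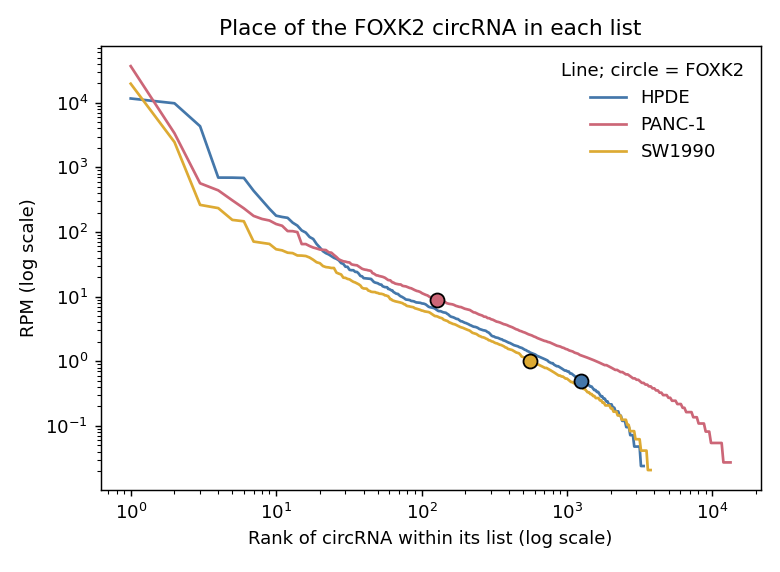
RPM of the circRNAs of each list against their rank (both axes on a log scale), 1 line per cell line, with the FOXK2 circRNA as a circle. FOXK2 is at rank 128 in PANC-1, 555 in SW1990 and 1249 in HPDE.

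FOXK2 gave a single back-splice product in these lists. The dominant junction held 100% of the gene's back-splice reads in every line, with a Clopper-Pearson lower limit of 83.9% on the 21 reads of HPDE, 98.9% on the 330 of PANC-1 and 92.7% on the 49 of SW1990. A second FOXK2 junction at 0 reads could still have reached 3 reads, or 0.0719 RPM in HPDE, 0.0818 RPM in PANC-1 and 0.0623 RPM in SW1990. That limit is 0.909% of the gene's reads in PANC-1 but 14.3% in HPDE and 6.12% in SW1990, so a minor isoform was detectable mainly in PANC-1. The limits hold only if the lists do not leave out junctions for another reason than their read number.

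Whether a junction overlapped another differed by list. Of PANC-1 circRNAs with at least the 330 reads of FOXK2, 85 of 128 (66.4%) overlapped no other listed junction, against 35.6% of the whole PANC-1 list. At the FOXK2 read number, the share was 84.1% of 1292 in HPDE and 85.4% of 562 in SW1990. Of the 659 circRNAs listed in all 3 lines, 177 (26.9%), FOXK2 among them, overlapped no other junction in any line.

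The circRNAs whose pattern over the 3 lines lay nearest to that of FOXK2 included those of CRIM1, RTN4 and RPRD1B. Likeness was the distance between log2 folds of PANC-1 and of SW1990 over HPDE, among 289 other circRNAs with a host symbol and at least 10 reads in each of 3 libraries. CRIM1, a membrane protein with cysteine-rich repeats, was at a distance of 0.30, with 0.264 RPM in HPDE, 3.90 RPM in PANC-1 and 0.582 RPM in SW1990. RTN4, a reticulon that shapes the endoplasmic reticulum, was at 0.55, with a higher level throughout of 1.99, 34.8 and 5.88 RPM in the same order. Both shared the step of FOXK2 up to PANC-1 and the smaller step to SW1990, which follows from choosing them by these folds. The SW1990 over HPDE fold was 2.20 (1.06 to 4.91) for CRIM1, on 11 HPDE reads, and 2.95 (2.30 to 3.82) for RTN4.

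RPRD1B, which binds the tail of RNA polymerase II, was at 0.58, with 0.264, 3.44 and 0.415 RPM in HPDE, PANC-1 and SW1990. These 3 had the smallest distances, and the median distance of all 289 was 4.11. For RPRD1B the interval of the SW1990 over HPDE fold reached below 1 (1.57, 0.719 to 3.64), on 11 HPDE reads. The likeness rests on 2 folds from 3 libraries.

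**Figure D4:**
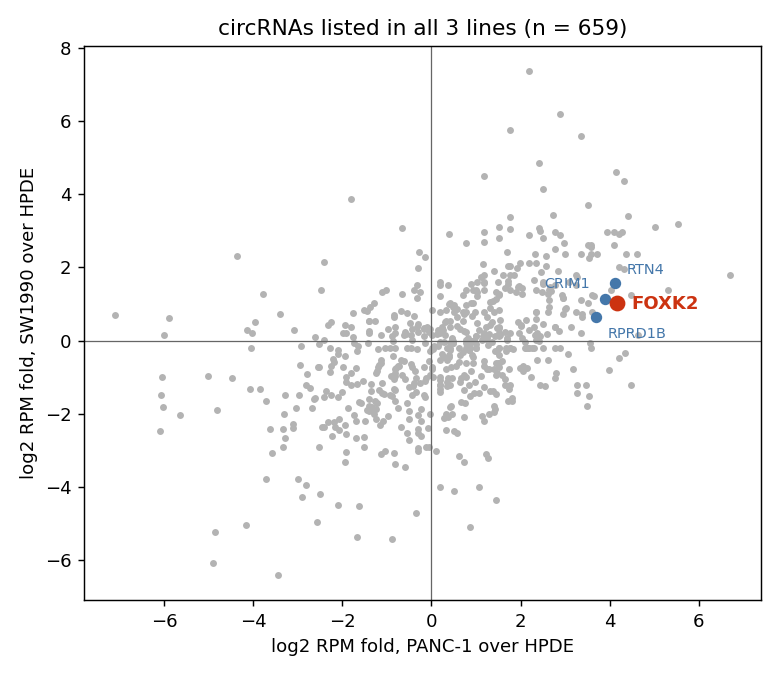
log2 RPM fold of SW1990 over HPDE against that of PANC-1 over HPDE for the 659 circRNAs listed in all 3 lines, 1 point each. FOXK2 (large point) is at 4.16 and 1.02, and the 3 nearest circRNAs with a host symbol and at least 10 reads in each line are named.

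The FOXK2 junction was the only one listed wholly within the FOXK2 window of chromosome 17. The nearest listed junctions wholly outside the window were 374.9 kb before it and 167.5 kb after it in HPDE. They were at 90.7 and 188.0 kb in PANC-1, and at 75.2 and 152.1 kb in SW1990. The usual spacing of listed junctions was not measured, so these distances cannot be called large. The flanking SW1990 junctions came from NARF (7 reads) and FN3KRP (47 reads), the one before it in HPDE came from CCDC57 (32 reads), and the others had no host symbol. Within 500 kb on either side there were 54 other distinct junctions, 46 of them in PANC-1, 7 in HPDE and 8 in SW1990, and 2 in all 3 lines. PANC-1 held 85.2% of them, against 77.8% of all distinct junctions of the series. Their summed level was 5.92 RPM in HPDE, 365 RPM in PANC-1 and 40.3 RPM in SW1990, but 1 junction, 17:80193859-80195769 with 11336 reads, gave 309 RPM of the PANC-1 sum.

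Junctions near FOXK2 did not share 1 order of lines. The 2 listed in all 3 lines both came from CCDC57 and were highest in HPDE. The one at 17:80141650-80146295 was at 0.767 RPM in HPDE, 0.191 RPM in PANC-1 and 0.291 RPM in SW1990, on 32, 7 and 14 reads. The one at 17:80136350-80137065 was at 0.312, 0.0818 and 0.0623 RPM in the same order, on only 13, 3 and 3 reads. The opposite pattern appeared at 17:80721841-80739597, inside the SW1990 interval of the tubulin-folding cofactor TBCD, with 17 reads in HPDE, 124 in PANC-1 and none in SW1990. A B3GNTL1 junction had no HPDE read, 73 in PANC-1 and 20 in SW1990.

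Genes tied to FOXK2 were read from lists of host symbols. Only the SW1990 table names hosts, so reads were summed over junctions touching the interval that SW1990 junctions cover for 1 host. A host at 0 elsewhere may still have junctions outside it, and folds of SW1990 over another line are biased upward. Over all hosts with at least 10 reads, 64.2% of 1423 were at least 2-fold higher and 13.4% lower in PANC-1 over HPDE (median log2 fold 2.06). In SW1990 over HPDE 62.5% of 1773 were higher and 12.7% lower (median 1.79), and in SW1990 over PANC-1 34.7% of 2018 were higher and 33.8% lower (median -0.15). These medians set hosts at 0 to 3 reads, and a host at 0 in the other library is counted as higher by the rule itself once it has 10 reads: this held for 571 of the 914, 901 of the 1109 and 497 of the 701 hosts counted as higher. Such counts describe the lists and are no evidence of a difference.

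Of 16 other forkhead genes, FOXJ3 and FOXN2 had a host sum. FOXJ3 had no HPDE read, 1.31 RPM in PANC-1 and 0.249 RPM in SW1990. FOXN2 had no HPDE read, 0.955 RPM in PANC-1 and 0.0831 RPM in SW1990. Both were highest in PANC-1, as FOXK2 was, and lower in SW1990 than in PANC-1, by 5.25-fold (2.75 to 10.9) and 11.5-fold (4.11 to 44.5). The paralogue FOXK1 was not among the SW1990 hosts, and none of the 994 junctions on chromosome 7, where it lies, had a span equal to any of 38 distances between its exons.

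Among 26 partners of FOXK2, namely SIN3 and other corepressors, the BAP1 complex, the LSD1 demethylase group and the Dishevelled proteins, 9 were named. In PANC-1 over HPDE, 5 of 6 compared were higher and none lower. In SW1990 over HPDE 4 of 5 were higher and 1 lower, and in SW1990 over PANC-1 1 of 8 was higher and 5 lower. Of those counted as higher, 2, 1 and 1 faced a library at 0 reads. The histone demethylase KDM1A was at 0.600 RPM in HPDE, 3.85 RPM in PANC-1 and 2.31 RPM in SW1990, and ASXL2, a partner of BAP1, at 0.144, 1.17 and 0.291 RPM. Both had the FOXK2 order of lines by RPM. For ASXL2 the SW1990 over HPDE fold, on 14 and 6 reads, had an interval that reached below 1 (2.02, 0.730 to 6.42). The deacetylase HDAC1 did not have the FOXK2 order, with 1.41 RPM in HPDE, 1.12 RPM in PANC-1 and 0.291 RPM in SW1990.

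Of 28 genes near FOXK2 on 17q25.3, 6 were named. In PANC-1 over HPDE 2 of 3 compared were higher and none lower, in SW1990 over HPDE 4 of 5 were higher and 1 lower, and in SW1990 over PANC-1 2 of 5 were higher and 3 lower. The other library had 0 reads for 1 of the 2, 3 of the 4 and 2 of the 2 hosts counted as higher. TBCD was at 0.408 RPM in HPDE, 14.8 RPM in PANC-1 and 1.16 RPM in SW1990, summed over 18 junctions. CCDC57 was at 1.13, 1.25 and 0.353 RPM, B3GNTL1 at 0, 2.75 and 0.415 RPM, and the lactate exporter SLC16A3 at 37.2 RPM in SW1990, with no read at that interval in the others. The SLC16A3 value covers only that 166-base interval: the PANC-1 junction 17:80193859-80195769 (309 RPM, no host symbol) ends 975 bases before it and spans 1911 bases, a distance between SLC16A3 exons in GENCODE v29, so SLC16A3 cannot be called higher in SW1990 than in PANC-1. TBCD thus had the order of FOXK2, whereas CCDC57 was level between HPDE and PANC-1 (ratio 1.11, 0.725 to 1.71).

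Of 32 RNA-binding proteins known to act on circRNA formation or to bind RNA widely, 9 were named. In PANC-1 over HPDE 2 of 5 were higher and 1 lower, in SW1990 over HPDE 6 of 9 were higher and none lower, and in SW1990 over PANC-1 5 of 9 were higher and none lower. Of these, 1, 5 and 5 were higher against a library at 0 reads. HNRNPC, an mRNA-packaging protein, was at 25.7 RPM in HPDE, 14.6 RPM in PANC-1 and 13.7 RPM in SW1990. The splicing repressor PTBP1 had no PANC-1 read, 2.01 RPM in HPDE and 1.83 RPM in SW1990. The helicase DDX39A had no HPDE read, 2.81 RPM in PANC-1 and 3.99 RPM in SW1990, and HNRNPL had 3.34 RPM in SW1990 alone. None of these 4 had PANC-1 as its highest line. The splicing factor QKI, named after its values were seen, was at 0.264 RPM in HPDE, 1.20 RPM in PANC-1 and 0.935 RPM in SW1990. Its reads numbered 11, 44 and 45 in that order. The SW1990 over PANC-1 ratio of QKI was 0.779 (0.503 to 1.21), so the order of PANC-1 and SW1990 was not resolved.

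Of 29 genes of glycolysis and mTOR nutrient signalling, 11 were named. In PANC-1 over HPDE 3 of 5 were higher and none lower, in SW1990 over HPDE 8 of 10 were higher and 1 lower, and in SW1990 over PANC-1 6 of 10 were higher and 1 lower. All 3 and all 8 of those higher against HPDE, and 4 of the 6 higher against PANC-1, faced a library at 0 reads, so the rule fixed those calls. The glycolytic enzymes PKM (42.6 RPM) and GAPDH (27.8 RPM) had reads in SW1990 alone at these intervals. Aldolase ALDOA had no HPDE read, 15.7 RPM in PANC-1 and 12.3 RPM in SW1990. The kinase AKT2 stayed within 2-fold across the lines, with 2.52 RPM in HPDE, 3.85 RPM in PANC-1 and 2.58 RPM in SW1990.

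The libraries held 3370 (HPDE), 13341 (PANC-1) and 3764 (SW1990) junctions with 1408352, 1885511 and 1273083 back-splice reads. Per M of those reads, FOXK2 had 14.9, 175 and 38.5, which keeps the order of lines. These totals depend heavily on a few very abundant junctions. The highest in each list was at 11644 RPM in HPDE, 36870 RPM in PANC-1 and 19707 RPM in SW1990. The lists could not check the cell type labels, since host intervals come from SW1990 alone and favour it. Reads at the SW1990 intervals of the ductal marker KRT7 numbered 520 in SW1990 and 0 in each of HPDE and PANC-1, those of CDH1 43, 0 and 0, those of EPCAM 38, 7 and 0, and those of the mesenchymal regulator ZEB1 36, 4 and 127 in the same order. No host sum could be formed for KRT8, KRT18, KRT19, VIM and FN1. Junction reads do not measure the linear mRNA of these genes or of FOXK2, and their part in the FOXK2 differences was not tested.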

How the data were processed

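Total RNA of 3 cell lines, 1 library each, was sequenced from NEBNext Ultra libraries, per the labels' protocols. Per the submitters' processing notes, TopHat2, TopHat and HTSeq were used on hg19; the versions are not stated there, nor are the circRNA caller and its filters. Each deposited table lists back-splice junctions with RPM, reads per M (mega) of a library total that the authors set (41.7, 36.7 and 48.1 M for HPDE, PANC-1 and SW1990). The deposited SW1990 table also gives the count of back-splice reads and host symbols. Reads were recovered from RPM: 100% of values were whole within 0.05 reads, and 3764 of 3764 SW1990 values equalled the deposited count. 1 emptied line in each of the HPDE and PANC-1 tables was not analysed here.

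Junctions were matched by identical coordinates. With 1 library per line the main results carry no test: folds are between RPM values, with exact conditional binomial, Poisson and Clopper-Pearson 95% intervals (Python 3.11.15, SciPy 1.17.1), which cover counting error only. Alternatives were scalings (TMM from edgeR 4.0.16, median of ratios, total back-splice reads), read minimums, the limit for 0 reads and an exact binomial test on the reads of 2 libraries (Benjamini-Hochberg adjusted p under 0.05). The junction, the host lists and the rules were chosen with earlier results of these data known. Per list, the 4 hosts with most reads are named, and of the 5 circRNAs nearest in pattern the first 3; some items that these rules chose are not reported here; a host, junction or marker outside these rules was chosen after its values were seen. Exons and sequences are from GENCODE v29 and RefSeq (GRCh38).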

Additional observations from a re-analysis of the deposited data

How the results depend on the processing

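The direction of every FOXK2 fold was kept under each scaling. The other alternatives for FOXK2 (a minimum of 3 reads, ends within 5 bases, junctions in all 3 libraries) could not change its values or its 100% share, since it has a single junction. Scaling moved the SW1990 over PANC-1 ratio of FOXK2, both for the junction and for the gene sum, from 0.113 to 0.160 with TMM, 0.163 with the median of ratios and 0.220 with total back-splice reads. In that order PANC-1 over HPDE was 15.0, 15.2 and 11.7, and SW1990 over HPDE 2.35, 2.33 and 2.58. A minimum of 20 reads left fewer circRNAs to compare: 2724 instead of 4827 were higher in PANC-1 over HPDE, 955 instead of 1559 higher in SW1990 over HPDE, and 841 instead of 1302 higher and 2755 instead of 4814 lower in SW1990 over PANC-1. The other 59 recomputed values stayed inside the counting interval or within 1.5 times the main count, but many of them could not move. They include the FOXK2 alternatives named above that could not change its values, and gene-sum scalings that repeat those of the junction. They also include a limit of 1 read for a library without reads. That limit left every count as it was, because a circRNA at the main read minimum already passed 2-fold against such a library. They are therefore not 59 separate checks. The exact conditional binomial test with the 2-fold rule called 4770 circRNAs higher in PANC-1 over HPDE and compares libraries, not conditions. Leaving out the FOXK2 junction left no other to sum, so that alternative gave no value. No paired analysis was possible because each line has 1 library. The number of FOXK2 reads is the limit in HPDE, at 21, although its library total was not the smallest.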
